A study of Mus musculus with 24 samples.

Results

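Splicing of the new transcripts of a mouse embryo depends on proteins whose mRNAs are partly inherited from the oocyte and partly made after the zygotic genome is switched on. The 52 genes described here encode splicing factors of 4 families and were chosen by symbol, without use of any measured value, from the 55471 annotated genes of the deposited tables, of which 21974 are protein-coding. They comprise 11 *Srsf* genes, 20 *Hnrnp* genes, 12 *Snrp* genes and 9 *Sf3a* or *Sf3b* genes, and 5 pseudogenes with matching symbols were left out. Their mRNAs were followed in MII oocytes, late 1-cell (L1C) embryos and late 2-cell (L2C) embryos, together with their recovery by an antibody against N6-methyladenosine (m6A) and their response to knockdown (KD) of the m6A reader *Ythdc1*.

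SR proteins (*Srsf*) bind exonic enhancers and recruit the splicing machinery, while hnRNP proteins coat nascent RNA and often oppose exon inclusion. *Snrp* genes encode the Sm ring of the spliceosomal snRNPs and proteins specific to the U1 and U2 snRNPs, and the SF3A and SF3B complexes are parts of the U2 snRNP that hold it on the branch point. YTHDC1 is the nuclear reader of m6A and acts on splicing together with SR proteins: it is known to recruit SRSF3 to its target exons and to keep SRSF10 away from them. Among the hnRNP proteins, HNRNPA2B1 and HNRNPC have also been linked to m6A-marked RNA.

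All oocytes and embryos came from wild-type mice of the B6D2F1 background (C57BL/6J x DBA/2N). Oocytes were taken from superovulated 8-week-old females with the cumulus cells removed by hyaluronidase, and embryos came from superovulated B6D2F1 females mated with B6D2F1 males, collected as zygotes and cultured to L1C or L2C. SLIM-seq, an m6A immunoprecipitation for small samples, gave 3 IP and 3 input libraries at each of the 3 stages. Nothing in the sources used here says how many oocytes or embryos entered a library or that replicates came from separate collections, so p-values measure the spread between these libraries, which may be technical. For the KD experiment zygotes received Cas13d mRNA, either together with 3 crRNAs that target *Ythdc1* (3 KD libraries) or on its own (3 Ctrl libraries, NC in the labels), and were analysed at L2C. Ctrl embryos therefore carried the nuclease but no crRNA. In such bulk samples a smaller share of cells of one type and less RNA per cell cannot be told apart, and no spike-in entered the scaling, so that every level is relative to the rest of the library. The paper describes an oligo-dT primer for RNA-seq and a protocol based on Smart-seq2 for SLIM-seq. A change of poly(A) tail length and a change of RNA amount between stages therefore cannot be told apart here.

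The sequences that carry the design and the m6A question are shown first. The 3 crRNAs, each of 23 bases, were matched to the *Ythdc1* gene on chromosome 5 of GRCm38, and the match covered 5 of its 9 annotated transcripts. The first lies within an exon at chr5:86817026-86817048, the second within an exon at chr5:86815667-86815689, and the third spans an exon junction between 86816772 and 86816908.
crRNA 1: cctcattctcagtgttgttgccc
crRNA 2: aattcatcatcctgttctggtac
crRNA 3: ctctcagaaccatctggtgtagg

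The m6A methyltransferase favours adenosines in the context GGACT. In 1 principal transcript per gene of the annotation, 43 of the 52 members (82.7%) held at least 1 GGACT, beside 87.0% of 21866 protein-coding genes, and the median density was 0.577 per kb beside 1.015 per kb. All 9 *Sf3* genes held the motif, beside 10 of 11 *Srsf*, 17 of 20 *Hnrnp* and 7 of 12 *Snrp* genes. Below are GGACT sites near the stop codon, in capitals with 10 bases on each side, of 3 members recovered more in IP than in input at all 3 stages (*Hnrnpd*, *Hnrnpa0*, *Hnrnpul2*), of 3 recovered less at all 3 stages (*Sf3b3*, *Srsf4*, *Hnrnph2*) and of *Srsf3*, with transcript orientation and GRCm38 positions. Each is the site nearest to the stop codon among those whose printed window lies within 1 exon.
Hnrnpd, coding exon, chr5:99967322-99967346, minus strand: aagatctgaaGGACTacttttccaa
Hnrnpa0, 3' UTR, chr13:58127244-58127268, minus strand: ccctgaaggtGGACTcggccccaca
Hnrnpul2, 3' UTR, chr19:8832230-8832254, plus strand: gggctcttggGGACTgcagagcata
Sf3b3, coding exon, chr8:110815982-110816006, minus strand: gtgttgccaaGGACTtgatactgag
Srsf4, 3' UTR, chr4:131901479-131901503, plus strand: tcctgtttctGGACTtaccaacgtt
Hnrnph2, coding exon, chrX:134605332-134605356, plus strand: cactgccagtGGACTttcaggggcg
Srsf3, 3' UTR, chr17:29043161-29043185, plus strand: accctgtattGGACTgtaataaaca
These letters are a description and not mapped m6A sites. *Hnrnpa2b1* and *Hnrnpab*, both recovered more in IP at every stage, held no GGACT in that transcript, and across 51 members the density of the motif had a Pearson r with log2 IP/input of 0.132 at MII, 0.103 at L1C and -0.01 at L2C. These points share the same libraries, and the correlations are given without a test.

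Totals ran from 11107421 to 39739950 estimated counts for the SLIM-seq libraries and from 8696476 to 14500548 counts for the 5 complete KD libraries. The merged KD table and the file of KD replicate 3 end on chromosome 7, and hold 27 of the 52 members. Marker genes of the oocyte had a summed level of 20400 to 21200 CPM, counts scaled to the TMM-adjusted library size, in MII inputs and of 964 to 1030 CPM in L2C inputs, while 2-cell markers went from 30.6 to 36.5 CPM to 1100 to 1370 CPM. Cumulus cell markers summed to 13.4 to 14.4 CPM at MII with *Ptx3* at 0, and to 245 to 266 CPM at L2C, where *Amhr2* was higher than at MII by 8.52 on the log2 scale and *Inha* lower by 4.22. Of the 6 cumulus markers tested *Amhr2* was the 1 that was higher and 5 were lower (median -1.83), and without *Amhr2* the sum was 12.8 to 13.9 CPM at MII and 2.2 to 2.83 CPM at L2C. Whether these marker levels have a part in the results below was not tested.

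Within each family the MII levels per length spread widely. The level per length is the TPM of the authors, which divides by the whole gene span with introns. *Srsf5* had the highest mean among *Srsf* genes, 143 ± 24.1 TPM (SD, n = 3), and *Srsf9* the lowest of those counted in every MII input, 1.26 ± 0.527 TPM. *Hnrnpdl* with 133 ± 5.06 TPM and *Hnrnpll* with 0.144 ± 0.0451 TPM were the ends of the *Hnrnp* family. *Snrpd3*, an Sm core protein, had 63.6 ± 6.7 TPM and *Snrpn*, an Sm protein best known from imprinting in neurons, 0.53 ± 0.0568 TPM. *Sf3b2* led the *Sf3* genes with 163 ± 11.6 TPM and *Sf3b6*, which sits at the branch point adenosine, was the lowest with 6.64 ± 1.22 TPM. *Srsf12* was near the floor of the assay, with 0, 2 and 2 counts in the MII inputs, and could not be tested for changes between stages. The order depends on the length used: per kilobase of exon *Hnrnpf* stood first among *Hnrnp* genes and *Srsf4* first among *Srsf* genes at MII, and *Snrpn*, whose span is long, had a mean of 14.3. These values divide counts over the whole span by exon length. *Srsf4* had 529 CPM over its span in L2C inputs and 1.08 CPM over exons in Ctrl L2C embryos, so its place in this order is uncertain.

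From MII to L1C, most members that changed went down. Of 51 tested members 8 rose and 24 fell at a BH-adjusted p under 0.05 in edgeR, beside 31.5% of 15279 tested mRNAs called higher and 27.6% called lower, and the median log2 change was -0.46 for the members beside 0.09 for all mRNAs. The fall was seen in 3 of the families: 7 of 9 *Sf3* genes (median -0.60), 6 of 12 *Snrp* genes (median -0.62) and 8 of 20 *Hnrnp* genes (median -0.38), with 1, 1 and 2 members that rose. Among the 10 tested *Srsf* genes 4 rose and 3 fell, with a median of 0.11. The summed input level of all members was 3370 ± 163 CPM at MII, 2620 ± 87.5 CPM at L1C and 4610 ± 73.4 CPM at L2C (SD, n = 3 each).

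*Sf3b1*, the subunit of SF3B that clamps the branch point helix, had 490, 520 and 565 CPM in the MII inputs and 237, 225 and 231 CPM at L1C. The 2 stages did not overlap, and the log2 change was -1.18 (SE 0.108, adjusted p = 6.66e-07). *Sf3b3*, another subunit of the same complex, went the other way, from 37.5, 29.4 and 28.2 CPM to 124, 97.9 and 136 CPM (log2 change 1.91, SE 0.156, adjusted p = 2.29e-07). It was the single *Sf3* gene that rose at this step.

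*Snrpa1*, a U2-specific protein, fell from 86.7, 108 and 121 CPM to 32.3, 34.9 and 39.1 CPM (log2 change -1.57, SE 0.142, adjusted p = 6e-07). *Snrpc*, the U1 protein that helps to recognise the splice donor, rose from 1.98, 2.15 and 1.80 CPM to 3.17, 4.5 and 3.83 CPM (0.95, SE 0.19, adjusted p = 0.000742). Both changes separated the stages in every library. *Hnrnph3* fell by 0.91 on the log2 scale (SE 0.14, adjusted p = 8.45e-05), from 42.5 to 45.7 CPM down to 21.9 to 24.7 CPM. *Hnrnpd*, also called AUF1 for its binding of AU-rich elements, rose from 1.51, 1.15 and 1.41 CPM to 2.75, 2.23 and 2.70 CPM (0.91, SE 0.246, adjusted p = 0.006).

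Among the SR proteins, *Srsf6* went from 18.5, 17.7 and 19.3 CPM to 8.80, 9.79 and 10.2 CPM (log2 change -0.95, SE 0.138, adjusted p = 5.38e-05). *Srsf4* rose from 198, 209 and 220 CPM to 377, 538 and 518 CPM (1.19, SE 0.151, adjusted p = 1.59e-05). Of the partners of YTHDC1, *Srsf3* (chr17:29032628-29043373, plus strand) had 36.7, 47.5 and 44.4 CPM at MII and 48.9, 39.2 and 27.3 CPM at L1C, so that the stages overlapped (log2 change -0.15, SE 0.205, adjusted p = 0.548). *Srsf10* (chr4:135855747-135869908, plus strand) had 44.6, 55.9 and 41.5 CPM at MII and 95.5, 86.2 and 54.7 CPM at L1C. It passed the test (0.74, SE 0.225, adjusted p = 0.0125) although the L1C library with the lowest value lay below the highest MII library, and it did not pass without MII replicate 3 (0.64, adjusted p = 0.0554) or without L1C replicate 1 (0.58, adjusted p = 0.0578).

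From L1C to L2C, during the main activation of the zygotic genome, the direction turned. Of the 51 members 34 rose and 6 fell, beside 44.2% of mRNAs called higher and 39.3% called lower, with a median log2 change of 1.15 beside 0.16 for all mRNAs. All 15 *Hnrnp* genes that passed went up (median of 20 genes 1.11), and so did 8 *Srsf* genes (median 2.21) and 9 *Snrp* genes (median 1.76), with 1 *Srsf* and 3 *Snrp* genes that fell. The *Sf3* genes differed in their counts: 2 rose, 2 fell and the median was -0.01.

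*Hnrnpab* showed the smallest p among the *Hnrnp* genes, with 1.52, 1.81 and 1.35 CPM at L1C and 31.9, 37.0 and 39.4 CPM at L2C (log2 change 4.52, SE 0.228, adjusted p = 1.9e-10). Its span overlaps *Phykpl* on the other strand. *Snrpc* rose from 3.17, 4.5 and 3.83 CPM to 86.7, 106 and 94.8 CPM (4.64, SE 0.173, adjusted p = 1.14e-11), and *Srsf7*, an SR protein that also couples splicing to mRNA export, from 22.3, 21.8 and 19.6 CPM to 229, 167 and 227 CPM (3.29, SE 0.147, adjusted p = 6.25e-11). In each of these 3 genes every L2C library was several times above every L1C library. *Sf3b6* rose from 6.85, 5.06 and 6.09 CPM to 98.1, 71.5 and 103 CPM (3.92, SE 0.203, adjusted p = 2.46e-10).

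Of the members that fell, *Snrpb2*, the U2-specific partner of *Snrpa1*, had 42.9, 46.5 and 35.5 CPM at L1C and 11.4, 8.04 and 9.82 CPM at L2C (log2 change -2.09, SE 0.166, adjusted p = 2.35e-08). *Sf3b3* fell to 51.6, 58.6 and 57.3 CPM (-1.10, SE 0.151, adjusted p = 9.7e-06). *Srsf3* fell to 27.7, 18.5 and 22.3 CPM (-0.75, SE 0.206, adjusted p = 0.0037), although the highest L2C library lay just above the lowest L1C library. *Srsf10* stood at 167, 94.5 and 114 CPM at L2C (0.67, SE 0.222, adjusted p = 0.0126), overlapping L1C by 1 library, and did not pass without L1C replicate 3 (0.45, adjusted p = 0.0704) or without L2C replicate 1 (0.40, adjusted p = 0.0967).

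Over the whole interval, L2C inputs were higher than MII inputs for 33 of 51 members and lower for 10, beside 46.8% of mRNAs called higher and 38.3% called lower. The medians were 1.71 for *Srsf*, 0.70 for *Hnrnp*, 0.66 for *Snrp* and -0.34 for *Sf3*, beside 0.29 for all mRNAs. Of the *Srsf* genes 9 of 10 were higher and 1, *Srsf3*, was lower. Of the *Hnrnp* genes 14 of 20 were higher and 1, *Hnrnpk*, was lower. The *Snrp* family split into 7 higher and 3 lower and the *Sf3* family into 3 higher and 5 lower. The summed level of the *Srsf* genes was 492 ± 36.7 CPM at MII and 1460 ± 41.5 CPM at L2C, whereas that of the *Sf3* genes was 1450 ± 80.2 CPM at MII and 991 ± 38.3 CPM at L2C (SD, n = 3). *Srsf4* alone held 209 CPM of the *Srsf* sum at MII and 529 CPM at L2C. Counted over exons in Ctrl L2C embryos it had 1.08 CPM, so this part of the sum is uncertain.

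The 3 largest increases started from low levels at MII. *Srsf1*, the SR protein first described as ASF/SF2, had 0.861, 1.15 and 1.18 CPM at MII and 70.1, 47.4 and 61.8 CPM at L2C (log2 change 5.82, SE 0.224, adjusted p = 1.08e-11). *Snrpc* had 1.98, 2.15 and 1.80 CPM at MII and between 86.7 and 106 CPM at L2C (5.59, SE 0.186, adjusted p = 3.02e-12). *Snrpd2*, an Sm core protein added here after its values were seen, went from 0.517, 0.549 and 1.24 CPM to 36.0, 41.3 and 33.7 CPM (5.62, SE 0.269, adjusted p = 8.44e-11). *Hnrnpab* was higher by 3.66 on the log2 scale (SE 0.214, adjusted p = 7e-10) and *Sf3b6* by 3.46 (SE 0.197, adjusted p = 5.39e-10).

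Members with high maternal levels were among those lower at L2C. *Sf3b1* ended at 193, 179 and 183 CPM, a log2 change from MII of -1.50 (SE 0.109, adjusted p = 7.52e-09). For *Snrpb2* it was -2.67 (SE 0.168, adjusted p = 1.57e-09). For *Srsf3* the log2 change was -0.91 (SE 0.207, adjusted p = 0.000909) and for *Srsf10* 1.40 (SE 0.227, adjusted p = 4.32e-05), and neither gene's MII and L2C libraries overlapped. *Hnrnpk* had 127, 154 and 170 CPM at MII and 122, 96.3 and 106 CPM at L2C (-0.48, SE 0.151, adjusted p = 0.0094), and did not pass when libraries were scaled by size alone (-0.33, adjusted p = 0.0634).

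**Figure D1:**
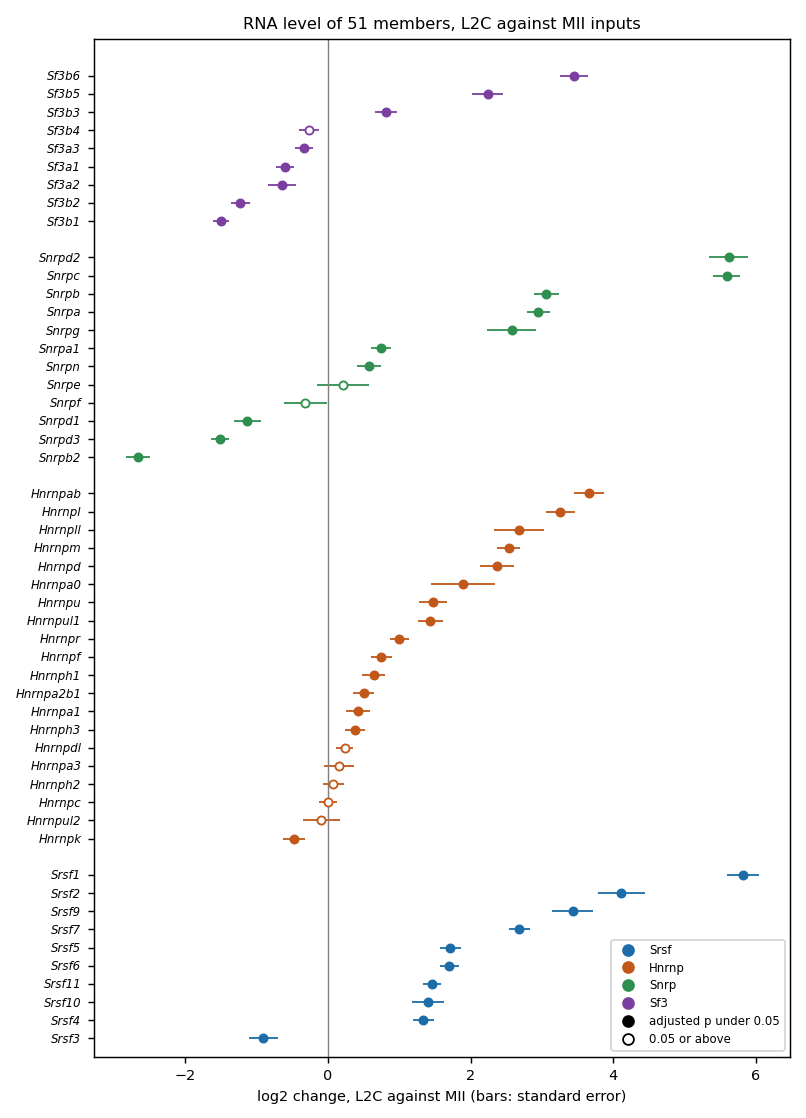
Log2 change of the input level from MII to L2C for the 51 tested members by family, as points with bars of 1 SE, filled where the BH-adjusted p is under 0.05. Most *Srsf*, *Hnrnp* and *Snrp* genes lie above 0, up to 5.82 for *Srsf1*, while 5 of 9 *Sf3* genes lie below 0 and pass the test.

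Scaling bears on how many genes lie above 0. With scaling by library size the median of all mRNAs from MII to L2C was 0.44 and with the size factors of DESeq2 0.52, in place of 0.29, and the members then counted 34 higher and 8 lower, and 34 higher and 9 lower. Of all mRNAs 7420 of 15279 and 7793 of 18245 were then called higher, and 5546 and 5689 lower. The *Sf3* median stayed below 0 under both, at -0.19 and -0.25. Between L1C and L2C the *Sf3* median was 0.09 and 0.14 under these scalings, so that its sign there depends on the scaling.

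Some of these genes share reads with near-identical processed copies elsewhere in the genome, which the counting can split. For 19 members the annotation held a copy of at least 95% identity over 150 bases, 8 of them *Snrp* genes, and for *Hnrnpa1*, *Hnrnpa3* and *Snrpg* the copies together held 7.42, 6.42 and 3.35 times the counts of the gene at MII. With the counts of the copies added, *Hnrnpa3* moved from no call between MII and L2C (log2 change 0.16, adjusted p = 0.498) to lower (-0.42, adjusted p = 0.00789), and between L1C and L2C from no call (-0.32, adjusted p = 0.174) to lower (-0.98, adjusted p = 6.32e-06), so that not every called *Hnrnp* gene then rose at that step. From MII to L1C *Hnrnpa3* became higher (0.56, adjusted p = 0.00205) and *Hnrnpa1* lower (-0.53, adjusted p = 0.00393). *Snrpg* moved from no call between MII and L1C (-0.19, adjusted p = 0.69) to lower (-1.08, adjusted p = 0.000261), and its IP/input then fell between L1C and L2C in the test between stages (-1.18, adjusted p = 0.0389). The calls of IP against input described next moved with the copies as well. *Sf3b4* lost its higher calls at MII (0.25, adjusted p = 0.244) and L1C (0.34, adjusted p = 0.121) and became lower at L2C (-0.479, adjusted p = 0.0232). *Hnrnpa3* became higher at MII (0.43, adjusted p = 0.00561) and at L1C, where it was 0.31 (adjusted p = 0.0436). *Snrpg* became higher at MII (1.15, adjusted p = 0.000963) and at L1C (1.71, adjusted p = 3.76e-05), with *Snrpe* higher at L1C (1.43, adjusted p = 0.0375), *Srsf5* higher at L2C (0.51, adjusted p = 0.0385), and *Hnrnpa1* lower at MII (-0.42, adjusted p = 0.0119) and at L2C (-0.375, adjusted p = 0.0198), where its sign turned from 0.12.

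Recovery by the m6A antibody was compared as IP against input at each stage. For this comparison CPM were scaled across all 18 libraries, so that an input has another value here than in the comparison of stages. At MII 21 of 52 members were higher in IP and 11 lower, beside 18.6% of 16163 mRNAs called higher and 25.6% called lower. At L1C 25 were higher and 9 lower, beside 16.0% and 22.4% of mRNAs. At L2C 20 were higher and 8 lower, beside 21.6% and 26.6%. The median log2 IP/input of the members was 0.28, 0.39 and 0.24 at the 3 stages, beside 0.00, 0.00 and -0.01 over all mRNAs.

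The families differed in their counts. No *Snrp* gene was lower in IP at any stage, while 3, 8 and 4 of the 12 were higher at MII, L1C and L2C. Of the 20 *Hnrnp* genes 10, 9 and 10 were higher and 7, 4 and 3 lower. Of the 11 *Srsf* genes 4, 5 and 5 were higher and 2, 2 and 1 lower. The *Sf3* genes had 4, 3 and 1 higher and 2, 3 and 4 lower, and their median went from 0.02 at MII to 0.12 at L1C and -0.27 at L2C. The difference between families was not tested.

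The 3 stages share no library. There were 16 members higher in IP at all 3 stages, among them 8 *Hnrnp* genes (*Hnrnpa0*, *Hnrnpa2b1*, *Hnrnpab*, *Hnrnpc*, *Hnrnpd*, *Hnrnpll*, *Hnrnpu* and *Hnrnpul2*), 4 *Srsf* genes (*Srsf1*, *Srsf2*, *Srsf7* and *Srsf9*), *Snrpb2*, *Snrpc*, *Snrpd1* and *Sf3b6*. *Hnrnpf*, *Hnrnph2*, *Hnrnpm*, *Sf3b3* and *Srsf4* were lower at all 3, 9 members passed at no stage and 0 were higher at 1 stage and lower at another. Of the 16163 mRNAs 7.13% were higher at all 3 stages, 12.1% lower at all 3 and 30.5% called at none. Across 51 members the log2 IP/input of MII and L1C had a Pearson r of 0.925, of L1C and L2C 0.879 and of MII and L2C 0.823, as a description of genes that are not independent of each other.

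*Hnrnpab* was the *Hnrnp* gene with the smallest p for higher recovery at all 3 stages. It had 16.3, 15.8 and 14.0 CPM in IP and 3.58, 2.46 and 4.29 CPM in input at MII (log2 IP/input 2.16, SE 0.175, adjusted p = 1.04e-08), with 2.43 (SE 0.186, adjusted p = 1.3e-08) at L1C and 1.75 (SE 0.151, adjusted p = 4.82e-08) at L2C. IP and input did not overlap at any stage. *Hnrnpa0* showed the widest ratio at L1C, 1.65, 1.95 and 2.35 CPM in IP against 0.242, 0.264 and 0.121 CPM in input (3.20, SE 0.437, adjusted p = 1.28e-05), at low counts and chosen here after its values were seen. *Hnrnpm* was at the other end, with 12.9, 10.1 and 12.4 CPM in IP and 40.4, 41.8 and 37.9 CPM in input at MII (-1.76, SE 0.186, adjusted p = 3.43e-07), -1.42 (SE 0.184, adjusted p = 7.54e-06) at L1C and -1.27 (SE 0.174, adjusted p = 1.08e-05) at L2C.

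Among the *Srsf* genes *Srsf2*, known as SC35, had 8.34, 5.4 and 6.53 CPM in IP and 1.21, 2.10 and 0.805 CPM in input at MII (log2 IP/input 2.29, SE 0.361, adjusted p = 4.5e-05). At L2C it had 63.6, 88.3 and 65.3 CPM in IP and 23.3, 12.4 and 21.7 CPM in input (1.91, SE 0.282, adjusted p = 2.43e-05). Its span overlaps *Mettl23* and *Mfsd11* on the other strand. *Srsf1*, with the smallest p of the *Srsf* genes higher in IP at L1C, had 7.60, 8.22 and 8.89 CPM in IP against 4.21, 3.48 and 3.82 CPM in input (1.10, SE 0.192, adjusted p = 0.000178). *Srsf4* was recovered less, with -1.24 at L1C (SE 0.163, adjusted p = 8.59e-06) and -1.72 at L2C (SE 0.165, adjusted p = 1.78e-07), from 193, 122 and 147 CPM in IP and 458, 590 and 476 CPM in input at L2C. *Srsf6* was lower at MII (-0.86, SE 0.146, adjusted p = 9.06e-05).

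*Srsf3* and *Srsf10* differed in their calls. For *Srsf3* IP and input overlapped at MII, with 53.9, 45.9 and 81.1 CPM in IP and 45.0, 57.0 and 52.8 CPM in input (log2 IP/input 0.23, SE 0.215, adjusted p = 0.451), and without MII IP replicate 3 the sign turned (-0.05, adjusted p = 0.955). At L1C it had 64.5, 86.3 and 78.1 CPM in IP and 56.0, 44.6 and 30.7 CPM in input (0.80, SE 0.215, adjusted p = 0.00697), and at L2C 43.3, 45.6 and 46.6 CPM against 26.8, 17.5 and 21.6 CPM (1.04, SE 0.217, adjusted p = 0.0008). *Srsf10* passed at no stage, with -0.27 (SE 0.232, adjusted p = 0.4) at MII, -0.49 (SE 0.23, adjusted p = 0.107) at L1C and 0.41 (SE 0.228, adjusted p = 0.16) at L2C. It passed as lower at L1C without L1C Input replicate 3 (-0.71, adjusted p = 0.0268) and as higher at L2C without L2C Input replicate 1 (0.67, adjusted p = 0.0316). With all libraries kept it also passed at L1C with no filter on low counts (-0.495, adjusted p = 0.00929) and at L2C with scaling by library size (0.66, adjusted p = 0.0242).

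For the snRNP proteins *Snrpd1*, an Sm core protein, was the *Snrp* gene with the smallest p at all 3 stages, with 38.9, 37.5 and 35.3 CPM in IP and 18.0, 12.9 and 16.8 CPM in input at L2C (log2 IP/input 1.23, SE 0.177, adjusted p = 1.93e-05). It was 0.83 (SE 0.174, adjusted p = 0.000768) at MII and 1.10 (SE 0.175, adjusted p = 7.13e-05) at L1C. *Sf3b6* was higher in IP, with 190, 261 and 205 CPM against 95, 67.7 and 99.9 CPM in input at L2C (1.32, SE 0.189, adjusted p = 1.84e-05). *Sf3b3* was lower, with 64.8, 60.1 and 49.0 CPM in IP against 142, 111 and 153 CPM at L1C (-1.23, SE 0.157, adjusted p = 6.43e-06). *Sf3a1*, a subunit of the SF3A complex, was 0.02 at MII (adjusted p = 0.963) and lower at L2C, with 58.3, 61.2 and 61.5 CPM in IP against 106, 120 and 108 CPM in input (-0.89, SE 0.106, adjusted p = 2.14e-06).

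**Figure D2:**
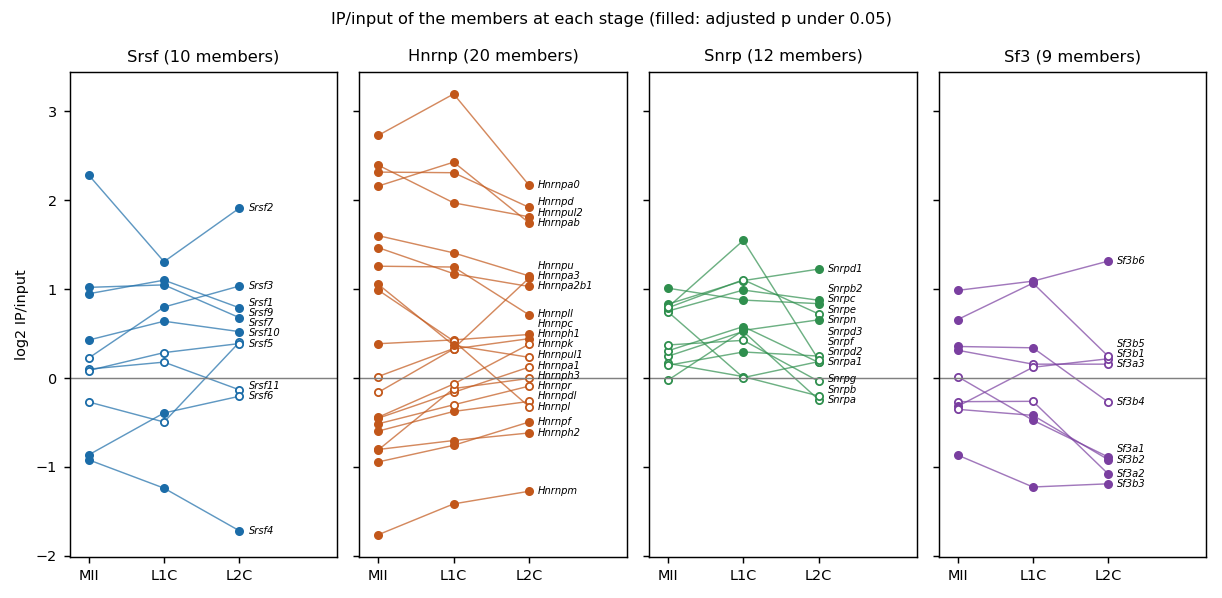
Log2 IP/input of the members except *Srsf12* at MII, L1C and L2C by family, filled where the BH-adjusted p is under 0.05. *Hnrnpab* lies at 2.16, 2.43 and 1.75 and *Hnrnpm* at -1.76, -1.42 and -1.27, and all filled *Snrp* points lie above 0.

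Where libraries were scaled by size alone, the median of all mRNAs moved to 0.16, 0.29 and 0.24 at MII, L1C and L2C, and the members counted 26 higher and 8 lower, 32 higher and 5 lower, and 28 higher and 7 lower, or 76.5%, 86.5% and 80.0% of calls higher in place of 65.6%, 73.5% and 71.4%. Of 16163 mRNAs 4463, 4851 and 5352 were then called higher, in place of 3012, 2586 and 3486. Those called lower were 3226, 2363 and 3108, in place of 4132, 3626 and 4295. The calls of higher recovery are therefore relative to the typical mRNA of the same stage.

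Whether recovery differed between stages was tested as an interaction. From MII to L1C 2 members increased and 2 decreased in IP/input, beside 3.81% of mRNAs called higher and 5.03% called lower. From L1C to L2C 0 increased and 2 decreased, beside 6.09% and 5.41%. DESeq2 called 0 and 6 at that step, and 2 and 10 had an unadjusted p under 0.05 in edgeR. Between MII and L2C 7 increased and 5 decreased, beside 13.5% and 10.9%. With any single library left out these counts ranged from 0 to 2 and 0 to 2 at the first step, from 0 to 1 and 0 to 2 at the second, and from 3 to 8 and 4 to 5 over both. With the replicate number as a block they were 0 and 0 at the first step, 0 and 0 at the second, and 3 and 6 over both. Fitted on the MII and L2C libraries alone, which are then scaled without L1C, the counts over both steps were 1 increased and 12 decreased (7.69% of calls higher in place of 58.3%). This fit differs in its libraries, its spread and its scaling at once, and which of them moved the split was not tested. *Hnrnpl* had the widest such difference among the members called, with a log2 IP/input of 0.99 (SE 0.167) at MII and -0.32 (SE 0.149) at L2C and an interaction of -1.31 (SE 0.224, adjusted p = 0.000344). *Sf3a1* had an interaction of -0.91 (SE 0.148, adjusted p = 0.000227), while *Hnrnph3* had one of 0.80 (SE 0.178, adjusted p = 0.00306). *Srsf3* did not pass between MII and L2C (0.81, adjusted p = 0.0675), and passed without MII IP replicate 3 (1.07, adjusted p = 0.0139) or without L2C Input replicate 1 (0.97, adjusted p = 0.0406), and with all libraries kept also with no filter on low counts (0.76, adjusted p = 0.0118) or with its copies added (0.80, adjusted p = 0.0422). Its differences at the single steps were 0.57 (adjusted p = 0.307) from MII to L1C and 0.24 (adjusted p = 0.689) from L1C to L2C. *Srsf10* had -0.23 (adjusted p = 0.796) and 0.90 (adjusted p = 0.0886) at these steps and 0.67 (adjusted p = 0.161) over both. It passed from L1C to L2C and over both steps with no filter on low counts (adjusted p = 0.00352 and 0.0406) or without L2C Input replicate 1 (adjusted p = 0.0297 and 0.0463), and from L1C to L2C without L1C Input replicate 3 (adjusted p = 0.034).

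The SLIM-seq tables count reads over whole gene spans and the KD tables over exons, and for some members the 2 gave very different levels at the same stage. Over 16488 mRNAs the log2 CPM of L2C inputs and of Ctrl embryos had a Pearson r of 0.766, and over the 52 members 0.278. *Srsf4* had a mean of 529 CPM over its span and of 1.08 CPM over exons, *Sf3a2* 75.5 and 1.61 CPM, and *Sf3b4* 53.1 and 5.96 CPM. *Snrpe* had 5.52 CPM over its span and 461 CPM over exons, *Snrpg* 10.3 and 470 CPM, and *Hnrnpa0* 1.16 and 54.8 CPM. *Srsf4*, *Sf3a2*, *Sf3b4* and *Snrpg* overlap an annotated gene on the other strand, and *Srsf4* and *Sf3b4* also one on the same strand. Overlap is not particular to them. Of the 52 members 27 overlap another annotated gene on either strand, among them *Hnrnpm* (*March2*) and *Sf3b3* (*Cog4*). The 2 experiments also differ in injection and in what was counted, which cannot be told apart here. These members were picked as ends of the difference after their values were seen. The median log2 difference of span against exon CPM was -1.11 over the 52 members (5th to 95th percentile -4.44 to 2.33). Over mRNAs it was 0.41 (-2.5 to 3.48). The stage and IP/input values of all members carry this limit, not only those of the members named here.

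**Figure D3:**
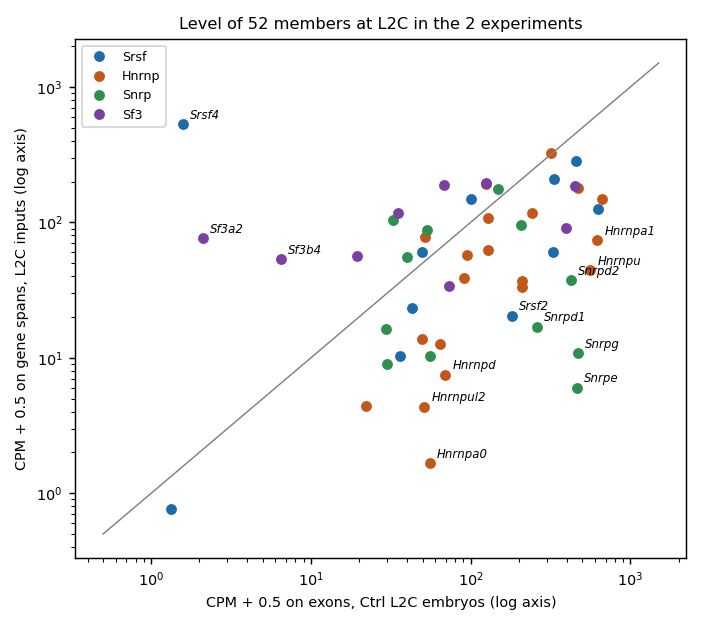
Mean CPM of L2C inputs counted over gene spans against mean CPM of Ctrl L2C embryos counted over exons (both log scales). The 52 members are in colours by family, and a grey line marks equal levels. *Srsf4* and *Sf3a2* lie far on the span side, at 529 against 1.08 and 75.5 against 1.61 CPM, and *Snrpe* and *Snrpg* on the exon side.

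In the KD experiment the targeted gene was checked first. *Ythdc1* had 523, 541 and 519 CPM in KD and 1080, 1100 and 994 CPM in Ctrl, a log2 change of -1.0 (SE 0.062, adjusted p = 1.34e-10), and every KD library lay below every Ctrl library. CPM of the merged table are relative to the genes in that table, which hold 37.5% to 39.0% of a library. For the 25 members beyond it, the whole annotation of 2 KD and 3 Ctrl libraries was used, which leaves out KD replicate 3.

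Splicing factor mRNAs were mostly higher in KD, mostly by less than 1 on the log2 scale. With a log2 change above 1 in size also asked for, 1 member of the merged table and 3 beyond it were higher and 0 lower. The counts that follow do not ask for it. Of the merged table's members, 20 of 26 tested members were higher and 1 lower, beside 35.6% of 5661 mRNAs called higher and 36.5% called lower, with a median log2 change of 0.49 beside -0.02. Among members beyond that table, 17 of 25 were higher and 1 lower, beside 33.0% of 12919 mRNAs called higher and 35.0% called lower, with a median of 0.53 beside -0.03. By family and with both sources, 6 *Srsf*, 14 *Hnrnp*, 10 *Snrp* and 7 *Sf3* genes were higher, and *Srsf2* and *Hnrnpul1* were lower. *Srsf12*, too low for the test in the merged table, was also lower over the whole annotation. The summed level of the members was 13200 ± 301 CPM in 2 KD libraries and 9730 ± 239 CPM in 3 Ctrl libraries, and each family's sum was higher in both KD libraries than in every Ctrl library.

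**Figure D4:**
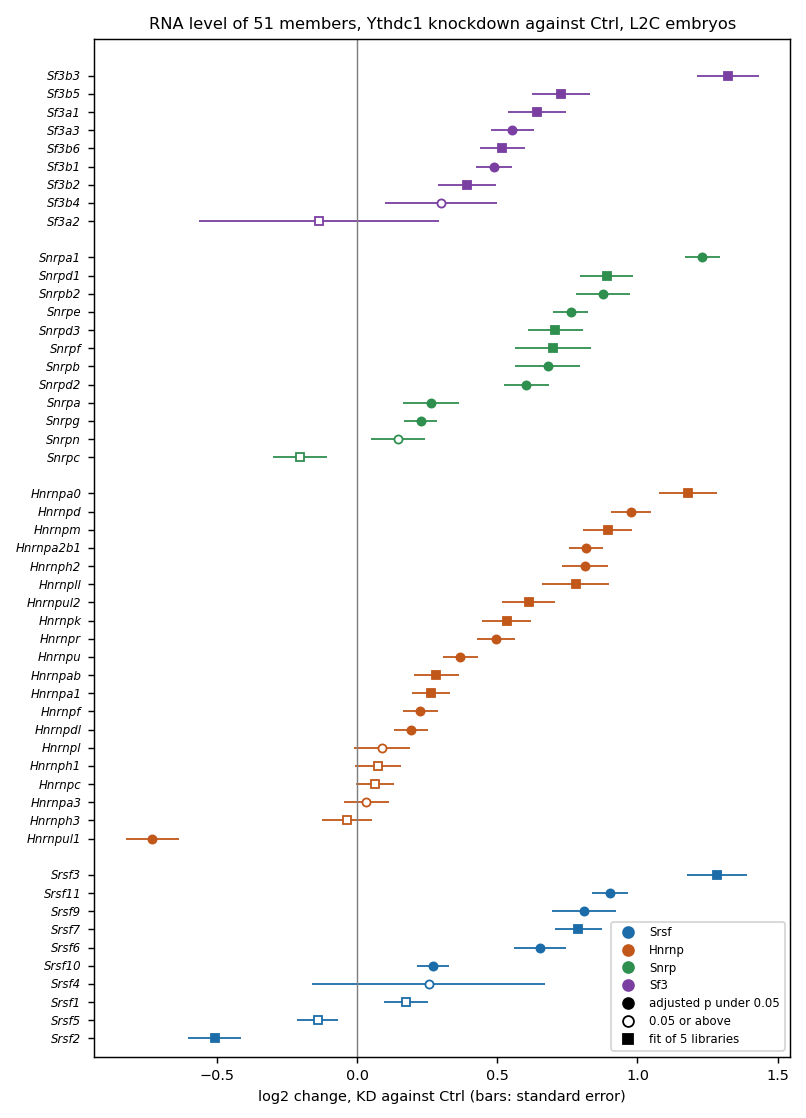
Log2 change in KD against Ctrl L2C embryos for the members by family, with bars of 1 SE and filled where the BH-adjusted p is under 0.05. Most filled points lie above 0, up to 1.32 for *Sf3b3*, and *Hnrnpul1* and *Srsf2* lie below 0 at -0.73 and -0.51.

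The known partners of YTHDC1 were both higher. *Srsf3* had 108 and 101 CPM in KD and 47.7, 43.1 and 37.1 CPM in Ctrl (log2 change 1.28, SE 0.108, adjusted p = 7.23e-08, whole annotation). *Srsf10* had 2020, 1970 and 1940 CPM in KD and 1680, 1700 and 1540 CPM in Ctrl (0.27, SE 0.058, adjusted p = 0.0004, merged table). In both genes every KD library lay above every Ctrl library. *Srsf2* was lower in KD, with 130 and 123 CPM in KD and 195, 181 and 163 CPM in Ctrl (-0.51, SE 0.094, adjusted p = 0.000177).

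*Srsf11* had 478, 489 and 491 CPM in KD and 263, 261 and 256 CPM in Ctrl (log2 change 0.90, SE 0.065, adjusted p = 8.64e-10), the smallest p of the *Srsf* genes in the merged table. *Srsf6*, *Srsf7* and *Srsf9* were higher by 0.65, 0.79 and 0.81. *Srsf1* (0.17, adjusted p = 0.0594), *Srsf5* (-0.14, adjusted p = 0.0928) and *Srsf4* (0.26, adjusted p = 0.595) did not pass. *Srsf12* had 0 counts in all 3 KD libraries and 13, 15 and 4 counts in Ctrl. It was too low for the test in the merged table, and with a floor of 3 counts per library it was at least 2.85-fold lower in the whole annotation, where it passed (adjusted p = 0.000943).

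Among *Hnrnp* genes *Hnrnpa2b1* had 2260, 2120 and 2090 CPM in KD and 1250, 1270 and 1150 CPM in Ctrl (log2 change 0.82, SE 0.06, adjusted p = 1.21e-09). *Hnrnpa0* had 132 and 117 CPM against 56.5, 59.1 and 48.6 CPM (1.18, SE 0.103, adjusted p = 1.07e-07, whole annotation). *Hnrnpm* rose from 120, 121 and 130 CPM in Ctrl to 213 and 247 CPM in KD (0.89, SE 0.088, adjusted p = 4.03e-07). *Hnrnpul1* was lower in every KD library, with 81.0, 77.4 and 72.4 CPM against 118, 130 and 136 CPM (-0.73, SE 0.096, adjusted p = 1.9e-06). *Hnrnpc* had 0.06 (adjusted p = 0.434) and *Hnrnpa3* 0.03 (adjusted p = 0.732).

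Of the 12 *Snrp* genes 10 were higher. *Snrpa1* had 861, 920 and 911 CPM in KD and 398, 372 and 377 CPM in Ctrl (log2 change 1.23, SE 0.063, adjusted p = 1.1e-11). *Snrpd1* had 508 and 454 CPM against 280, 273 and 225 CPM (0.89, SE 0.094, adjusted p = 7.93e-07, whole annotation). All Sm core genes *Snrpb*, *Snrpd1*, *Snrpd2*, *Snrpd3*, *Snrpe*, *Snrpf* and *Snrpg* were called higher, from 0.23 for *Snrpg* to 0.89 for *Snrpd1*. *Snrpn* (0.15, adjusted p = 0.192) and the U1 protein gene *Snrpc* (-0.20, adjusted p = 0.074) did not pass, and *Snrpa* passed in the merged table (0.26, adjusted p = 0.0239) but not over the whole annotation without KD replicate 3 (0.26, adjusted p = 0.0595).

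*Sf3b3* had the widest change of the *Sf3* genes, with 48.3 and 46.7 CPM in KD and 20.1, 18.1 and 18.6 CPM in Ctrl (log2 change 1.32, SE 0.11, adjusted p = 6.31e-08, whole annotation). *Sf3b1* had 1620, 1600 and 1700 CPM in KD and 1250, 1200 and 1060 CPM in Ctrl (0.49, SE 0.065, adjusted p = 2.11e-06). *Sf3b2* passed (0.39, adjusted p = 0.00375) over the whole annotation but not without KD replicate 2 (0.26, adjusted p = 0.0915), where 1 KD library is left and is assumed to vary like the Ctrl libraries. *Sf3a2* (-0.14, adjusted p = 0.791) and *Sf3b4* (0.30, adjusted p = 0.19) did not pass, at exon counts that were low.

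The KD response was set beside the other readouts, which share no library with it. Of the 10 members lower at L2C than at MII, 9 were higher in KD, all but *Sf3a2*, and of the 33 members higher at L2C 23 were. Of the 20 members recovered more in IP at L2C 13 were higher in KD, of the 8 recovered less 6 were, and of the remaining 24 members 18 were. The same crossings over all mRNAs gave 22.1% higher in KD of those lower at L2C, 45.2% of those higher at L2C, and 33.7%, 36.4% and 33.8% of those recovered more, less or neither. Across 51 members the log2 KD change had a Pearson r of 0.038 with log2 IP/input at L2C and of -0.21 with the log2 change from MII to L2C, as a description.

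Stage markers moved in the same embryos. The 2-cell markers were lower in KD in 10 of 10 tested genes, with a summed level of 568 to 653 CPM against 2020 to 2210 CPM in Ctrl. Of the 10 oocyte markers 7 were lower and 1 was higher, with sums of 822 to 892 CPM against 1670 to 1800 CPM, and cumulus markers summed to 37.5 to 40.7 CPM in KD and 24.3 to 32.0 CPM in Ctrl, with *Ptx3* and *Fshr* at 0 in both groups. Of the 2 cumulus markers that could be tested *Amhr2* was higher in KD (0.59, adjusted p = 0.00104), and without it the sums overlapped, at 8.03 to 9.8 CPM in KD and 6.35 to 9.42 CPM in Ctrl. The part of these differences in the results on splicing factors was not tested. When libraries were scaled by size alone the median of all mRNAs was -0.14 in the merged table and -0.11 in the whole annotation, and the members counted 16 higher and 1 lower, and 17 higher and 3 lower. Of all mRNAs 1731 of 5661 and 3875 of 12919 were then called higher, and 2343 and 4870 lower.

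Other genes of the splicing pathway were counted from 6 lists with 129 genes, of which 128 were in the files. From MII to L2C 59 of 126 tested were higher (46.8%) and 39 lower (31.0%), with a median log2 change of 0.32, beside 46.8% and 38.3% of all mRNAs and a median of 0.29. In KD 67 of 125 were higher (53.6%) and 15 lower (12.0%) in the whole annotation, with a median of 0.34, beside 33.0% and 35.0% of mRNAs. The SMN complex and its partners, which assemble the Sm ring, had 9 of 13 higher and 0 lower in KD, led by *Gemin2* (1.52, SE 0.104, adjusted p = 8.98e-09), and from MII to L2C 9 higher and 2 lower, with *Wdr77* higher by 9.4 (SE 0.232, adjusted p = 3.65e-13) and *Smn1* at -2.68 (SE 0.11, adjusted p = 1.84e-11). The LSM proteins, which bind U6 snRNA or act in mRNA decay, had 8 of 10 higher and 0 lower in KD, led by *Lsm8* of the U6 ring (1.04, SE 0.086, adjusted p = 6.22e-08). From MII to L2C 5 LSM genes were higher and 3 lower, with *Lsm8* at 3.46 (SE 0.192, adjusted p = 4.01e-10) and *Lsm1*, which acts in mRNA decay, at -1.30 (SE 0.136, adjusted p = 4.73e-07).

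Core spliceosome genes counted 26 of 43 higher (60.5%) and 4 lower in KD, with *Slu7* higher by 1.14 (SE 0.074, adjusted p = 5.94e-09) and *Bcas2* at -0.38 (SE 0.087, adjusted p = 0.00116). Minor spliceosome genes counted 5 of 9 higher (55.6%) and 0 lower, with *Zcrb1* at 0.73 (SE 0.09, adjusted p = 4.17e-06). SR protein kinases, importers and coactivators counted 7 of 19 higher (36.8%, near the 33.0% of all mRNAs) and 4 lower, with the kinase *Prpf4b* at 0.73 (SE 0.083, adjusted p = 1.98e-06) and *Tra2b*, a regulator related to SR proteins, at -0.69 (SE 0.067, adjusted p = 3.43e-07). Other splicing regulators counted 12 of 31 higher (38.7%, beside the same 33.0%) and 7 lower, with *Tial1* at 1.11 (SE 0.096, adjusted p = 9.58e-08) and *Rbm5* at -0.51 (SE 0.075, adjusted p = 2.23e-05). From MII to L2C core spliceosome genes split into 20 higher (46.5%, beside 46.8% of all mRNAs) and 16 lower of 43, with *Xab2* at 5.11 (SE 0.182, adjusted p = 5.26e-12) and *Prpf6* at -3.04 (SE 0.133, adjusted p = 3.48e-11), and the SR kinases and coactivators into 6 higher and 7 lower of 20, with the importer *Tnpo3* at 5.57 (SE 0.178, adjusted p = 2.3e-12) and the kinase *Srpk2* at -1.86 (SE 0.125, adjusted p = 3.35e-09). Minor spliceosome genes counted 5 higher and 3 lower of 9 over this interval, with *Snrnp35* at 6.32 (SE 0.194, adjusted p = 1.62e-12) and *Pdcd7* at -2.65 (SE 0.145, adjusted p = 3.53e-10), both proteins of the U11/U12 snRNP. Other splicing regulators counted 14 higher and 8 lower of 31, with *Rbm5* at 5.30 (SE 0.166, adjusted p = 1.85e-12) and *Esrp1*, known from epithelial splicing, at -2.31 (SE 0.117, adjusted p = 1.54e-10).

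Promoters of the members were searched for 4 short motifs. In the 250 bases before the start, from RefSeq on GRCm38.p6, the ETS core CCGGAAG was found on either strand in 15 of 46 members with an entry (32.6%), beside 7.1% of 27025 promoters: 6 *Sf3*, 4 *Srsf*, 3 *Snrp* and 2 *Hnrnp* genes. GGGCGG, the core of GC boxes, was in 69.6% beside 32.9%, CCAAT in 45.7% beside 34.5% and TATAAA in 10.9% beside 13.0%. The 27025 promoters were not filtered by gene type, whereas the members are all protein-coding. A pair of examples is shown with the match in capitals, for a member lower at L2C than at MII (*Sf3a1*) and a member higher (*Srsf7*).
Sf3a1, chr11:4160104-4160353, plus strand: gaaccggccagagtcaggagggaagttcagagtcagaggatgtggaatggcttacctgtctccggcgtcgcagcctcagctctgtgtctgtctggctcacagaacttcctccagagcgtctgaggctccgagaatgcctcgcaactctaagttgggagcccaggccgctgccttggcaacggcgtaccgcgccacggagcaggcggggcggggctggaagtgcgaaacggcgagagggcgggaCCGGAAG
Srsf7, chr17:80207306-80207555, minus strand: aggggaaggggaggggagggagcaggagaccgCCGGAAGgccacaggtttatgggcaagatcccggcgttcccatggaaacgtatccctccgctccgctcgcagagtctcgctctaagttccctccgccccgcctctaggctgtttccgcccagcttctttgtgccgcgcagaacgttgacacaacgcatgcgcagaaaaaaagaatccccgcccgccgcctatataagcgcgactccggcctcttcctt
A match of letters is a description and says nothing of a factor bound there.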

How the data were processed

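SLIM-seq IP and input libraries of MII oocytes, L1C and L2C embryos and RNA-seq libraries of KD and Ctrl L2C embryos were grouped by their labels. For SLIM-seq the authors trimmed reads with Trimmomatic and deposited kallisto estimated counts and TPM per gene, on GRCm38. The targets are whole gene spans with introns, so unspliced RNA and overlapping genes enter both values, and the deposited TPM divide by effective span length. For KD the authors aligned trimmed reads with Hisat2 and deposited featureCounts counts over exons, with no strand setting in the stated command, although the labels name a stranded kit. Reads of overlapping genes on opposite strands cannot be told apart.

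Estimated counts were rounded. Each table was fitted whole with edgeR (4.0.16, R 4.3.3): TMM scaling, filterByExpr and the quasi-likelihood test, called at a Benjamini-Hochberg (BH) adjusted p under 0.05 over all genes tested. Every adjusted p in the text is of this kind. The 9 inputs were fitted together for RNA changes and all 18 SLIM-seq libraries for IP/input and for the interactions with stage. KD was fitted on the merged table of 3 KD and 3 Ctrl libraries, and for members beyond it on the whole annotation without KD replicate 3, whose file stops early. Background shares of calls and of GGACT are over protein-coding genes. Those of promoter motifs are over all 27025 symbols with a RefSeq promoter, with no filter on gene type. CPM were TMM-scaled. Totals of 8696476 to 39739950 counts make counting error small for most members, and members near 1 CPM rest on few reads. Fits were tested on simulated data. Python 3.11.15 with pandas 2.3.3 and matplotlib 3.10.9 made the summaries and plots, and DESeq2 (1.42.0) served as an alternative.

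The symbol rule uses no measured value, but these families and the lists were taken up with earlier results of these data known. *Srsf3* and *Srsf10* are named in every comparison, together with, per family and direction, the called member of smallest p and, per family, the highest and lowest MII level of those counted more than once in every MII input. From the lists of other splicing genes, the called gene of smallest p per direction is named for L2C against MII and for KD over the whole annotation. Other members, among them all those that passed an interaction test, were picked after their values were seen. Transcripts came from the GENCODE annotation of GRCm38, 1 per gene by APPRIS rank and then length, and promoters from RefSeq. Alternatives were DESeq2, no filter on low counts, scaling by library size, a block for the replicate number, each library left out in turn, a fit of the compared stages alone, a log2 change above 1 in size asked for as well, the threshold rule of the study (unadjusted p), and, chosen after seeing the data, the counts of near-identical copies added to the member.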

Additional observations from a re-analysis of the deposited data

Results flagged for a closer look

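The log2 IP/input of 12 members differed between stages by the interaction test (edgeR, 18 libraries, BH-adjusted p over all genes), which gave 18 differences in all. Between MII and L2C 7 of 52 members were called higher and 5 lower, beside 13.5% and 10.9% of mRNAs. Between MII and L1C it was 2 and 2, beside 3.81% and 5.03%, and between L1C and L2C 0 and 2, beside 6.09% and 5.41%. Between MII and L2C, *Hnrnph3* (0.804, adjusted p = 0.00306), *Sf3b1* (0.537, adjusted p = 0.00572), *Hnrnpk* (0.821, adjusted p = 0.021), *Srsf6* (0.66, adjusted p = 0.0245), *Hnrnph1* (0.604, adjusted p = 0.0343), *Snrpn* (0.68, adjusted p = 0.0347) and *Hnrnpa3* (1.108, adjusted p = 0.0347) were recovered relatively more at L2C. *Sf3a1* (-0.906, adjusted p = 0.000227), *Hnrnpl* (-1.311, adjusted p = 0.000344), *Hnrnpul1* (-0.822, adjusted p = 0.00531), *Srsf4* (-0.799, adjusted p = 0.0177) and *Sf3b4* (-0.627, adjusted p = 0.0191) were recovered relatively less. Under every alternative fit that was run *Hnrnph3*, *Hnrnpl*, *Hnrnpul1* and *Sf3a1* still passed. *Srsf4* was lost without L2C Input replicate 2 (-0.687, adjusted p = 0.0515) and *Sf3b4* without MII Input replicate 3 (-0.564, adjusted p = 0.0532) or MII IP replicate 2 (-0.543, adjusted p = 0.0538). With only MII and L2C libraries in the fit the other 6 did not pass (adjusted p = 0.0748 for *Sf3b1*, 0.0629 for *Hnrnpk*, 0.075 for *Srsf6*, 0.115 for *Hnrnph1*, 0.118 for *Snrpn* and 0.0504 for *Hnrnpa3*), and *Hnrnpa3* did not pass with the counts of its copies added (0.436, adjusted p = 0.0666). With the replicate number as a block *Hnrnpk*, *Hnrnph1*, *Snrpn* and *Hnrnpa3* did not pass (adjusted p = 0.0645, 0.0599, 0.0758 and 0.0663).

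Between MII and L1C, *Hnrnph3* (0.691, adjusted p = 0.0229) and *Sf3b1* (0.44, adjusted p = 0.0441) went up and *Hnrnpul1* (-0.686, adjusted p = 0.0414) and *Sf3a1* (-0.493, adjusted p = 0.0491) went down. Between L1C and L2C, *Hnrnpl* (-0.738, adjusted p = 0.0476) and *Sf3b4* (-0.612, adjusted p = 0.0411) went down. These 6 differences lay near the threshold. Each was lost on leaving out at least 1 single library, with no filter on low counts, and with the replicate number as a block.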

How the results depend on the processing

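No member called in a comparison changed its direction under any alternative run. Of the values for named genes 1191 kept their direction and their side of the threshold, 120 lost the call, 13 gained one and 2 turned, the latter both for *Srsf3*, which was not called. These exclude members named for their copies, of which *Hnrnpa1* (IP/input at L2C) and *Hnrnpa3* (L2C against MII), not called before, turned to lower with the copies added. The RNA change of *Srsf3* from MII to L1C ranged from -0.358 to 0.033 over single libraries left out, the last without L1C Input replicate 3, and its IP/input at MII from -0.046 to 0.388.

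In what follows, counts of members are given as higher and lower. With a log2 change above 1 in size asked for as well, RNA counted 4 and 6 from MII to L1C, 2 lower from L1C to L2C and 5 lower from MII to L2C; IP/input counted 11 and 1 for MII, 14 and 3 for L1C and 11 and 4 for L2C; the interactions counted 0 and 0 for L1C against MII, 0 lower for L2C against L1C and 1 and 1 for L2C against MII; KD counted 1 and 0 in the merged table and 3 and 0 beyond it. The rule of the study gave the same KD counts, and for the interactions 5 higher for L1C against MII and 2 and 10 for L2C against L1C. Scaling by library size gave 5 lower in IP at L1C, 0 lower for the interaction L1C against MII and 3 lower in KD beyond the merged table. Without a filter on low counts the interactions counted 0 and 0 for L1C against MII and 1 and 4 for L2C against L1C, and 2 were lower in KD in each table. With only the stages compared in the fit the interactions counted 1 higher for L1C against MII, 5 lower for L2C against L1C and 1 and 12 for L2C against MII. DESeq2 gave 6 lower for the interaction L2C against L1C and 2 lower in KD in the merged table, and the whole annotation gave 2 lower for the members of that table. With counts of near-identical copies added, an alternative chosen after seeing the data, 1 member (*Hnrnpa3*) was higher and 3 were lower for the interaction L2C against L1C, *Snrpg* among them (-1.178, adjusted p = 0.0389). The causes were not tested.

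The study states that input and IP RNA of a stage came from the same batches, but the sources used here do not say that a replicate number marks a batch. Same-numbered libraries of different groups did not deviate together (correlations of -0.201 to 0.21 over 21 pairs, beside -0.32 to 0.369 over 42 pairs of different numbers), so the fits without a block were kept, and a pairing by batch that the numbers do not show cannot be tested here. With the replicate number as a block the interactions counted 0 and 0 for L1C against MII, 0 and 0 for L2C against L1C and 3 and 6 for L2C against MII, and 2 were lower in KD beyond the merged table. Members called with and without the block were 43 of 43 for L2C against MII, 28 of 32 for IP/input of MII, 29 of 34 of L1C and 27 of 28 of L2C, 21 of 21 for KD in the merged table, and 0 of 4, 0 of 2 and 8 of 12 for the interactions L1C against MII, L2C against L1C and L2C against MII.

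With each library left out in turn, RNA counted 7 to 8 and 22 to 26 from MII to L1C, 31 to 35 and 6 to 6 from L1C to L2C, and 31 to 33 and 9 to 10 from MII to L2C. IP/input counted 16 to 19 and 9 to 12 for MII, 19 to 23 and 6 to 9 for L1C, and 18 to 21 and 7 to 8 for L2C. The interactions counted 0 to 2 and 0 to 2 for L1C against MII, 0 to 1 and 0 to 2 for L2C against L1C, and 3 to 8 and 4 to 5 for L2C against MII. KD counted 19 to 21 and 1 to 2 in the merged table, and 16 to 17 and 1 to 2 beyond it, where leaving out a KD library leaves 1, whose spread is assumed to be that of Ctrl. Depth limits members near 1 CPM, and *Srsf12* could not be tested between stages.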
